A study of Mus musculus with 8 samples.

Results

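Apoe, Apoc1, Lpl, Fabp5, Trem2, Gpnmb, Abca1, Cd36, Plin2 and Lgmn are 10 genes of lipid handling in macrophages, and they were read here in single-cell RNA libraries of mouse heart, liver and kidney allografts and of the blood of the recipients. They were chosen by name, and all 10 were listed in the tables of all 8 libraries, which together held 24405 genes. Their levels were read in 4 myeloid gates, C1q-high macrophages, a Kupffer gate, Chil3-high monocytes and neutrophils, and in T cells as the background for free RNA. No member was used to set a gate.

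The libraries were made by Microwell-seq, in which single cells settle in small wells with 1 barcoded bead each and every captured mRNA receives a unique molecular identifier (UMI). The 8 libraries were blood mononuclear cells (PBMC) from recipients of heart, liver and kidney, tissue-infiltrating lymphocytes (TIL) of the 3 organs, and parenchymal cells (PC) of kidney and liver, with 1 library for each group, all from day 7 after transplantation. The labels give male animals of the strain BALB/c at 8 weeks for all libraries, whereas the study's methods name BALB/c donors and C57Bl6/J recipients. No immunosuppression was given to any group. The study's methods name 2 recipients for each organ, so that libraries of 1 organ may share animals, and neither source says which animals a library came from or whether they were pooled.

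Total UMIs per library ran from 3418722 to 19171264, and 47541 of 80000 barcodes reached the floor of 500 UMIs with no more than 10% of them mitochondrial. Organ genes ran against 2 labels. The library labelled heart TIL held 1056 UMIs of the hepatocyte gene Alb and 1233 of the Kupffer genes Clec4f and Cd5l. The library labelled liver TIL held 0 UMIs of Alb, 1 UMI of Clec4f and Cd5l together, and 128 UMIs of the atrial myosin gene Myl7. Both are called here by their labels, no library was moved to another group, and macrophages against T cells and monocytes against neutrophils are also given without both. Between pairs of libraries 123 to 617 barcodes were shared, and the origin of these was not tested.

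Macrophages take up lipoproteins, cell debris and free fatty acids, break them down in lysosomes, store the products as esters in lipid droplets and return cholesterol to the outside through membrane transporters. Apoe and Apoc1 encode apolipoproteins, and Lpl encodes the lipase that frees fatty acids from lipoprotein triglyceride. Cd36 encodes a scavenger receptor and fatty acid carrier, Fabp5 a cytosolic fatty acid chaperone, Plin2 the coat protein of lipid droplets and Abca1 the transporter that loads cholesterol onto apolipoproteins. Trem2 encodes a lipid-sensing receptor that signals through Tyrobp, Gpnmb a glycoprotein of late endosomes and lysosomes, and Lgmn the lysosomal asparaginyl endopeptidase. Kupffer cells are the resident macrophages of the liver sinusoids, and the C1q genes, which encode the recognition unit of the classical complement pathway, mark tissue macrophages.

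On GRCm38, Apoe lies at chr7:19696109-19699188 and Apoc1 at chr7:19689481-19692660, both on the minus strand with 3448 bases between them. Lpl lies at chr8:68880491-68907448, Fabp5 at chr3:10012548-10016607, Trem2 at chr17:48346401-48354147 and Gpnmb at chr6:49036546-49070929, all on the plus strand. Abca1 lies at chr4:53030787-53159895, Plin2 at chr4:86648386-86670060, Cd36 at chr5:17781690-17888801 and Lgmn at chr12:102394084-102439813, all on the minus strand. No other annotated gene overlapped any of the 10. The promoters of 3 members follow, as the 250 bases before the start site in the RefSeq table of GRCm38.p6, written 5′ to 3′ on the strand of the gene. They are shown because Apoe and Abca1 were among the members higher in C1q-high macrophages than in monocytes, while Trem2 did not pass that test.
Apoe, chr7:19699189-19699438, minus strand: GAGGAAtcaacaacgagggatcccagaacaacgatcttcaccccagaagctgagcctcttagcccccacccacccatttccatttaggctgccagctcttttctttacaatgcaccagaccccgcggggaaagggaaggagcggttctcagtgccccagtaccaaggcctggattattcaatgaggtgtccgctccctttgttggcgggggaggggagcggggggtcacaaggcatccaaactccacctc
Abca1, chr4:53159896-53160145, minus strand: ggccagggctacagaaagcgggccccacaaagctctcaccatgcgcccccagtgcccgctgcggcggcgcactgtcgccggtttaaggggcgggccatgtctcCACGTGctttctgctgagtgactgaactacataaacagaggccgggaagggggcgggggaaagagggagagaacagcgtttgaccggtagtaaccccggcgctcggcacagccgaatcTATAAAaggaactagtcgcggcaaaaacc
Trem2, chr17:48346151-48346400, plus strand: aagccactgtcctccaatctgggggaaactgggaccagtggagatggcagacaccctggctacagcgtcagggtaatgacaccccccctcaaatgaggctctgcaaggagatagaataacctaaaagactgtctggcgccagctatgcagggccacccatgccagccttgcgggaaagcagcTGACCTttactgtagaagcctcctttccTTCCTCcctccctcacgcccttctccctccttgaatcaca
Capitals mark exact matches to any of 5 short motifs, searched on both strands, so that a match may be printed as the reverse complement. The motifs were the PU box with the letters GAGGAA, the AP-1 site with TGAGTCA, the E-box with CACGTG, the half-site of nuclear receptors with AGGTCA and the TATA box with TATAAA. In the Trem2 window both matches are on the other strand. None of these matches overlapped another. The Apoe window held 1 PU box, the Trem2 window 1 PU box and 1 half-site, and the Abca1 window 1 E-box and 1 TATA box. Of 7 members found in the table (Apoe, Trem2, Gpnmb, Abca1, Cd36, Plin2 and Lgmn), 2 had a PU box and 3 a half-site. Over all 32851 promoter windows of the same length, 23.3% held a PU box, 14.0% a half-site, 12.4% a TATA box, 6.02% an E-box and 4.46% an AP-1 site. These are letter matches, and no binding was measured.

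The gates used raw UMIs of a cell. A C1q-high macrophage had at least 5 UMIs of C1qa, C1qb and C1qc together and none of Clec4f, Cd5l or Csf3r, and the Kupffer gate was the same with at least 1 UMI of Clec4f or Cd5l. A Chil3-high monocyte had at least 5 UMIs of Chil3 and fewer than 5 of C1q, with at least 1 UMI of a monocyte gene (Csf1r, Ccr2, Fn1, F13a1 or Ms4a6c). A neutrophil had Csf3r, the receptor for granulocyte colony-stimulating factor, and at least 5 UMIs of S100a8 and S100a9, and a T cell had at least 2 UMIs of the CD3 genes. All gates limited genes of some other lineages. The C1q-high and Kupffer gates set no limit on Chil3, the monocyte genes, S100a8 or S100a9, so a cell high in both C1q and Chil3 counted as a macrophage. Together they took 17123 of the 47541 cells.

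C1q-high macrophages numbered 1287 in labelled heart TIL, 963 in liver PC, 2083 in labelled liver TIL, 58 in kidney PC and 126 in kidney TIL, and between 1 and 7 in each blood library. The Kupffer gate took 207 cells in labelled heart TIL and 180 in liver PC, and 0 in every other library. Chil3-high monocytes numbered 436 in labelled heart TIL, 477 in liver PC, 218 in liver PBMC and 61 in labelled liver TIL, and at most 9 elsewhere. Thus the gates held enough cells (20 or more) for macrophages in tissue libraries only, and for monocytes in 1 blood library. The gates are cuts through a range, and 20.1% to 43.1% of C1q-high cells had 5 or 6 C1q UMIs.

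In C1q-high macrophages Csf1r, the receptor for colony-stimulating factor, lay between 215 and 611 CPM (the UMIs of a gene relative to all UMIs of the gate in a library) in the 5 libraries, and the lysosomal marker Cd68 between 574 and 690 CPM. The Kupffer genes Marco, Vsig4 and Timd4 stood at 766, 254 and 96.2 CPM in the Kupffer gate of labelled heart TIL and at 1509, 378 and 148 CPM in that of liver PC, against 120, 10.2 and 10.2 CPM and 195, 7.92 and 3.70 CPM in the other C1q-high macrophages. Of the cells in the Kupffer gate, 122 of 207 and 83 of 180 had a single UMI of Clec4f and Cd5l. Tissue neutrophils were few (57 to 100 cells) and held 574, 298 and 798 CPM of the 8 macrophage markers together in labelled heart TIL, liver PC and labelled liver TIL, against 437, 210 and 511 CPM in T cells of the same libraries and 102 and 306 CPM in the blood neutrophils of heart and liver recipients. The 9 T cell markers together stood at 2048, 1235 and 1800 CPM in the C1q-high macrophages of labelled heart TIL, liver PC and labelled liver TIL, beside 1824, 2289 and 2407 CPM of the macrophage markers. In kidney PC and kidney TIL they stood at 3343 and 2069 CPM, above the 1645 and 1699 CPM of the macrophage markers. In T cells of the 3 large libraries they stood at 10404, 9868 and 9198 CPM, and in the tissue neutrophils at 3260, 2362 and 2984 CPM. RNA of T cells was thus read in the myeloid gates, and its part in the results was not tested.

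All 10 members were called higher in C1q-high macrophages than in T cells over 5 libraries together, against 21.3% of the 9031 genes tested. Of the 10, Abca1 passed the filter on low counts through the macrophages alone, so that its call is a description. Within libraries the level was higher in macrophages for 45 of 50 pairs of member and library, and for Apoc1 in 3 of 5 libraries. The share of such pairs over all genes was not counted, and not all 45 were beyond counting error. The interval of the ratio lay above 1 in 1 library for Apoc1, and in 3 of 5 for Trem2, Gpnmb, Abca1 and Cd36. Levels are CPM, and they are compared between gates and not between genes. The test was edgeR's quasi-likelihood test with the library as a block over 5 libraries, and it leaves 4 residual degrees of freedom, so small p-values rest on the spread shared over all genes. Libraries of an organ may share recipients, and the 5 libraries are then not 5 independent samples. DESeq2 called 9 of the 10 higher, all but Apoc1.

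**Figure D1:**
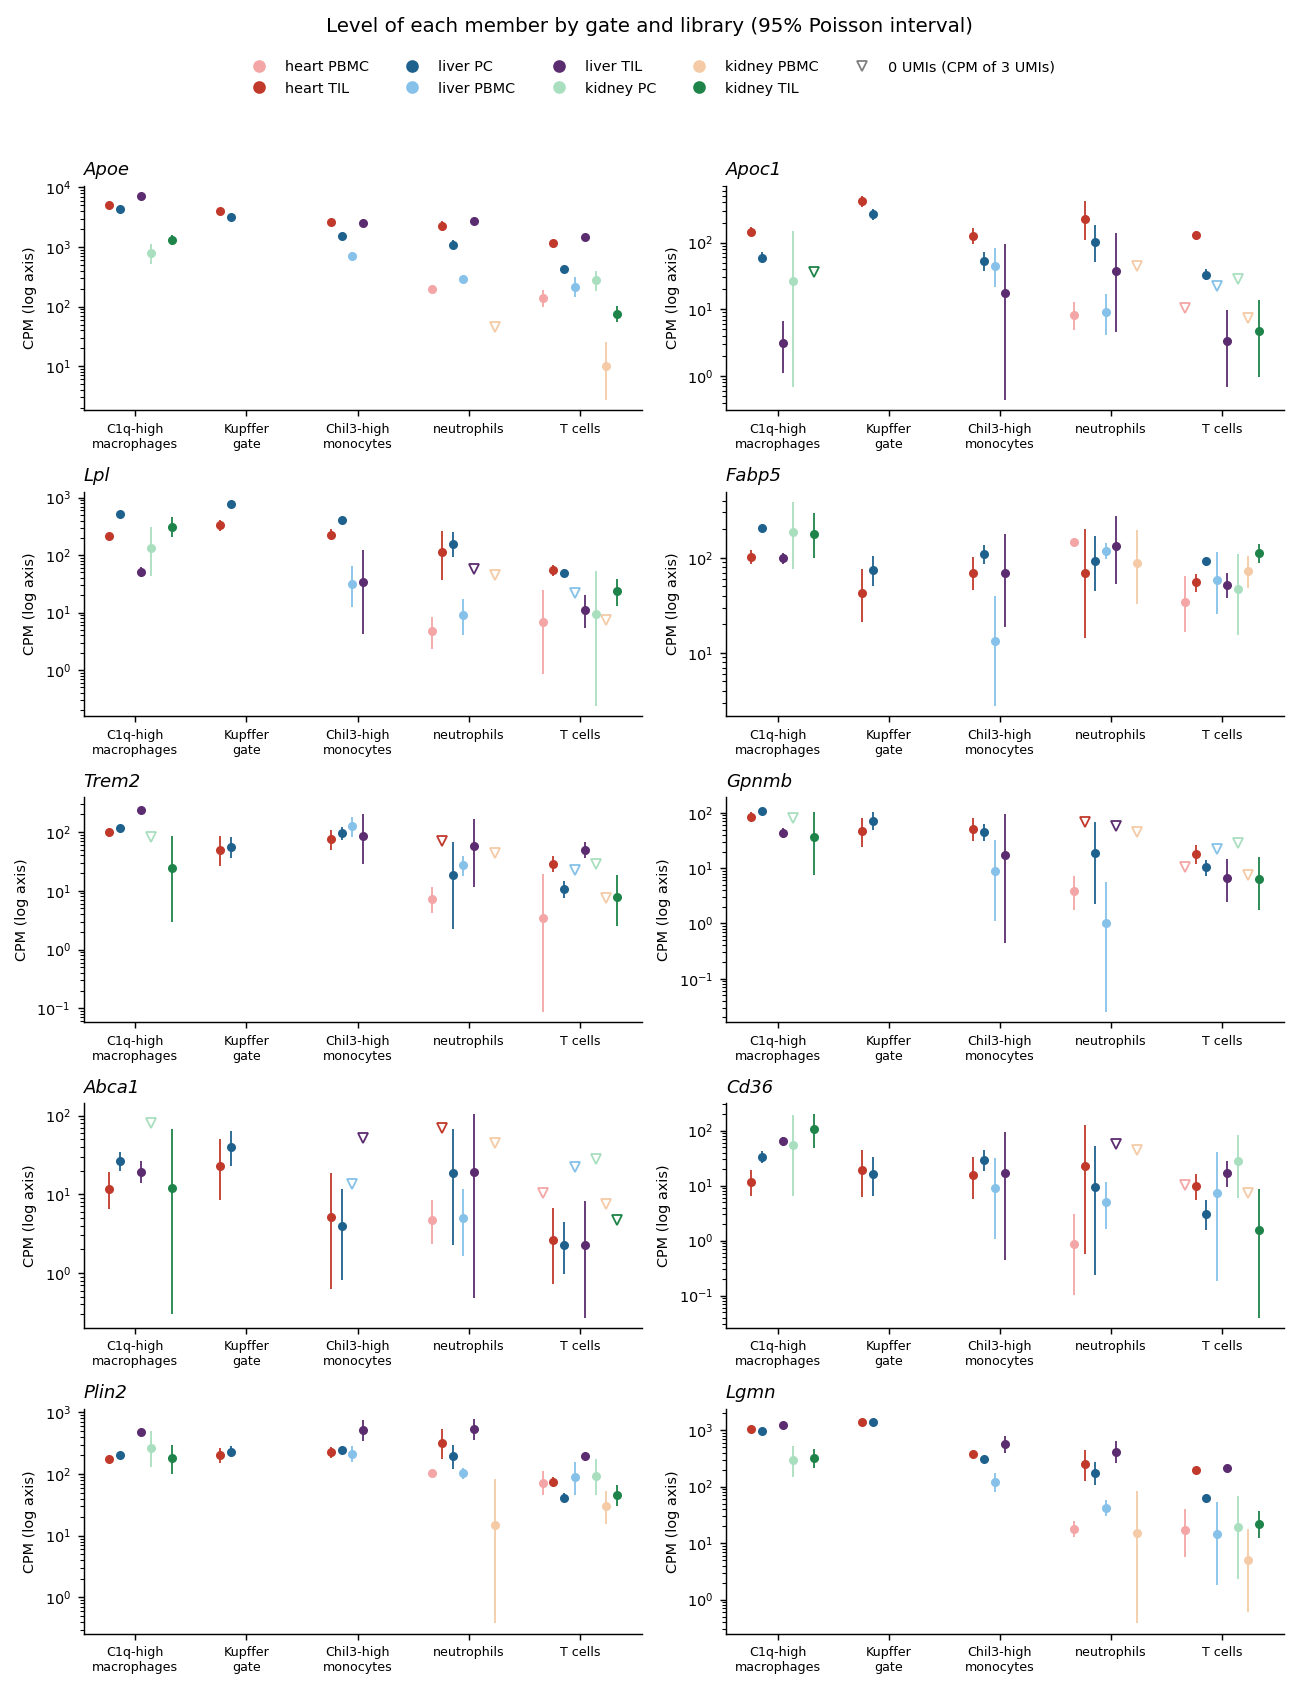
Level of each of the 10 members (CPM, log axis) in 5 gates, 1 point per library with at least 20 cells in the gate and its exact 95% Poisson interval; open triangles stand for 0 UMIs and are drawn at the CPM that 3 UMIs would give. Apoe lies between 782 and 7079 CPM in C1q-high macrophages and between 9.96 and 1475 CPM in T cells, and Apoc1 is highest in the Kupffer gate.

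Among the secreted proteins, Apoe in C1q-high macrophages stood at 5102 CPM (4979 to 5227, exact 95% Poisson interval) in labelled heart TIL, 4298 in liver PC, 7079 in labelled liver TIL, 782 in kidney PC and 1328 in kidney TIL. In T cells of the same libraries it stood at 1188, 425, 1475, 274 and 75.8 CPM. The macrophages were higher in 5 of 5 libraries, by a log2 fold change of 2.84 ± 0.18 (SE), adjusted p = 6.26e-33. As given below, the call was lost with labelled heart TIL and labelled liver TIL both left out, and without the library block. The level in T cells was itself highest where the level in macrophages was highest, in labelled liver TIL, and it was 139, 214 and 9.96 CPM in T cells of heart, liver and kidney PBMC. The T cell gate allowed at most 1 C1q UMI.

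Apoc1, which lies beside Apoe, did not follow it. In C1q-high macrophages it stood at 147, 59.7, 3.07, 27.0 and 0 CPM in labelled heart TIL, liver PC, labelled liver TIL, kidney PC and kidney TIL, and in T cells at 129, 33.2, 3.37, 0 and 4.74 CPM. Macrophages exceeded T cells beyond the counting interval only in liver PC, where the ratio was 1.80. The call over all libraries (log2 fold change 0.66 ± 0.21, adjusted p = 0.0057) was lost without liver PC, where the adjusted p was 0.37. The hepatocyte list, which includes the plasma apolipoproteins Apoa1, Apoa2 and Apoc3, stood at 444, 209, 1.54, 0 and 0 CPM in these macrophages and at 364, 116, 1.12, 0 and 4.74 CPM in the T cells. Alb and Apoa1 were also the genes with the profile most like that of Apoc1, and their part in its level was not tested.

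Lpl stood at 212 CPM in C1q-high macrophages of labelled heart TIL, 527 in liver PC, 50.7 in labelled liver TIL, 135 in kidney PC and 311 in kidney TIL, and at 55.0, 48.6, 11.2, 9.45 and 23.7 CPM in T cells. The interval of the ratio was above 1 in 5 of 5 libraries, and the log2 fold change was 2.999 ± 0.19 (adjusted p = 1.11e-53). Labelled liver TIL was the lowest of the 5 and liver PC the highest.

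Among the genes of uptake, binding and storage, Plin2 stood at 178, 202, 479, 270 and 179 CPM in C1q-high macrophages of labelled heart TIL, liver PC, labelled liver TIL, kidney PC and kidney TIL, and at 74.3, 41.6, 193, 94.5 and 45.8 CPM in T cells. It was higher in 5 of 5 libraries, by a log2 fold change of 1.82 ± 0.16 (adjusted p = 2.47e-27). Fabp5 was the member with the smallest difference after Apoc1, at 103, 208, 98.8, 189 and 179 CPM against 55.0, 91.7, 51.6, 47.2 and 112 CPM (log2 fold change 1.18 ± 0.17, adjusted p = 1.96e-11). Fabp5 was thus found in T cells of every library, blood included, at 34.7 to 112 CPM. Cd36 stood at 11.8, 33.8, 64.0, 53.9 and 108 CPM in macrophages, on 15, 64, 125, 2 and 9 UMIs, and its log2 fold change was 2.46 ± 0.28 (adjusted p = 5.74e-16). Its interval exceeded 1 in liver PC, labelled liver TIL and kidney TIL, and not in labelled heart TIL, where the ratio was 1.18.

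Of the lysosome genes and receptors, Lgmn stood at 1044, 955, 1249, 297 and 323 CPM in C1q-high macrophages of labelled heart TIL, liver PC, labelled liver TIL, kidney PC and kidney TIL and at 194, 63.8, 210, 18.9 and 22.1 CPM in T cells (log2 fold change 3.26 ± 0.17, adjusted p = 3.87e-75). Trem2 stood at 99.5, 115, 236, 0 and 23.9 CPM against 28.5, 10.7, 49.4, 0 and 7.90 CPM (log2 fold change 2.69 ± 0.20, adjusted p = 7.16e-40). Gpnmb stood at 84.6, 108, 44.0, 0 and 35.9 CPM against 17.9, 10.4, 6.74, 0 and 6.32 CPM (log2 fold change 3.02 ± 0.24, adjusted p = 6.20e-35). Trem2 was thus highest in labelled liver TIL, and Gpnmb lowest there among the 3 large tissue libraries. The exporter gene Abca1 had 15, 50 and 38 UMIs in the macrophages of labelled heart TIL, liver PC and labelled liver TIL, at 11.8, 26.4 and 19.4 CPM against 2.65, 2.25 and 2.25 CPM (log2 fold change 3.33 ± 0.41, adjusted p = 6.17e-15). The T cells held 4, 8 and 2 UMIs of it, so that it passed the filter on low counts through the macrophages alone and its call is a description. In kidney PC the 58 macrophages held 0 UMIs of Trem2, Gpnmb and Abca1, which allows up to 80.9 CPM. Abca1 levels like those of the 3 large tissue libraries lie under this limit and may be missed at this depth. The Trem2 levels of those libraries, 99.5 to 236 CPM, lie above it, and those of Gpnmb lie on both sides.

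Within liver PC the ratio of macrophages to T cells was 10.1 for Apoe, 10.8 for Lpl, 10.8 for Trem2, 10.4 for Gpnmb, 11.7 for Abca1 and 10.9 for Cd36. The T cells held 38, 37, 8 and 11 UMIs of Trem2, Gpnmb, Abca1 and Cd36, so that these ratios are loose. It was 15.0 for Lgmn, 4.85 for Plin2, 2.26 for Fabp5 and 1.80 for Apoc1. In labelled heart TIL and labelled liver TIL the ratios of Apoe, Trem2 and Lgmn were lower, at 4.30, 3.49 and 5.39 and at 4.80, 4.79 and 5.95. T cells of these libraries had a median of 1 C1q UMI, and those of liver PC a median of 0. The fit was repeated with labelled heart TIL and labelled liver TIL both left out, a choice made after the data were seen. There 7 of the members were called higher, against 16.5% of 4925 genes tested. Of these, Gpnmb passed the filter on low counts through the macrophages alone, so that its call is a description. Trem2 and Abca1 no longer passed the filter. Apoe had a log2 fold change of 3.33 at an adjusted p of 0.060. Without the library block Apoe had an adjusted p of 0.083.

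**Figure D2:**
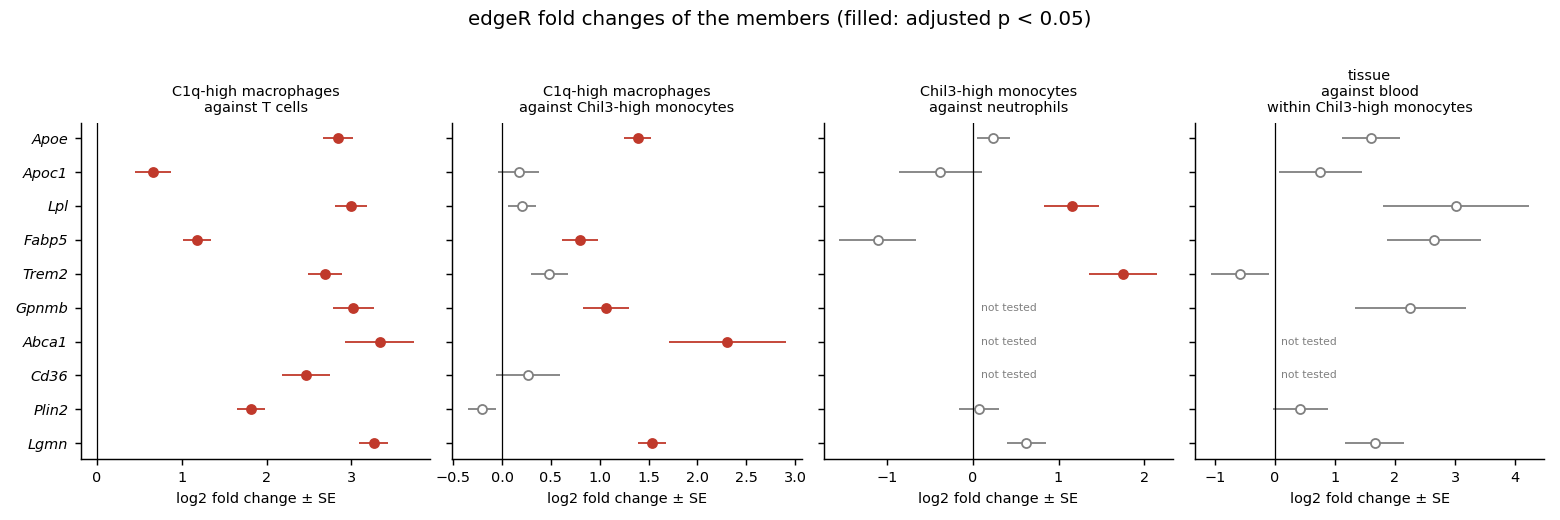
Log2 fold change of each member with its SE from the edgeR fits of 4 comparisons (x axis, log2 scale); filled points have an adjusted p under 0.05, and members under the filter on low counts are marked as not tested. All 10 points lie to the right of 0 for macrophages against T cells, and 5 of 10 are filled for macrophages against monocytes.

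Between C1q-high macrophages and Chil3-high monocytes 5 of 10 members were called higher in macrophages, Apoe, Fabp5, Gpnmb, Abca1 and Lgmn, against 2.94% of 7596 genes tested. Of these, Abca1 passed the filter on low counts through the macrophages alone, so that its call is a description. No member was called lower by edgeR, with 0 lower at an unadjusted p under 0.05 and 0 by DESeq2. The comparison rests on labelled heart TIL, liver PC and labelled liver TIL, with 2 residual degrees of freedom. The 2 gates overlap in their markers. The 8 macrophage markers together stood at 1824, 2289 and 2407 CPM in these macrophages and at 1510, 1756 and 1797 CPM in the monocytes. Neutrophil markers stood at 4820, 5552 and 4712 CPM in these macrophages and at 11830, 15583 and 7084 CPM in the monocytes. Their part was not tested. With both libraries whose organ genes ran against the label left out, liver PC alone remains and no test can be made, so its values are given with those of the others.

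Apoe stood at 5102, 4298 and 7079 CPM in macrophages of labelled heart TIL, liver PC and labelled liver TIL and at 2650, 1499 and 2540 CPM in monocytes, with ratios of 1.92, 2.87 and 2.79 (log2 fold change 1.39 ± 0.14, adjusted p = 1.01e-20). Lgmn stood at 380, 305 and 570 CPM in monocytes, and its ratios were 2.75, 3.14 and 2.19 (log2 fold change 1.53 ± 0.14, adjusted p = 3.39e-25). Both were higher in 3 of 3 libraries with intervals above 1 in each. Abca1 had 2, 3 and 0 UMIs in these monocytes (log2 fold change 2.31 ± 0.60, adjusted p = 0.0039), and in labelled heart TIL its ratio of 2.27 had an interval from 0.53 to 20.5. DESeq2 called 2 of the members higher, Apoe and Lgmn, and gave Abca1 no adjusted p. Without the library block Lgmn alone was called (adjusted p = 0.039), with an adjusted p of 0.078 for Apoe and 0.23 for Abca1, and without liver PC Abca1 was not tested. Gpnmb (log2 fold change 1.06 ± 0.23, adjusted p = 2.28e-04) and Fabp5 (0.80 ± 0.18, adjusted p = 6.57e-04) were higher in 3 of 3 libraries. The interval was above 1 in 2 of these for Gpnmb and in 1 for Fabp5. Monocytes of labelled liver TIL held 1 UMI of Gpnmb and 4 of Fabp5. Gpnmb and Fabp5 both lost the call without labelled heart TIL (adjusted p = 0.062 and 0.23) and without liver PC (adjusted p = 0.61 and 0.69), and with DESeq2 (adjusted p = 0.26 and 0.29).

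The other 5 members did not pass. Trem2 had 75.0, 94.4 and 86.4 CPM in monocytes of labelled heart TIL, liver PC and labelled liver TIL, and its log2 difference was 0.48 ± 0.19 (adjusted p = 0.12). It passed with gates of 10 UMIs (0.61, adjusted p = 0.021) and without the limits on other lineages (0.49, adjusted p = 0.012). Plin2 stood at 225, 245 and 518 CPM in monocytes, above the 178, 202 and 479 CPM of macrophages in 3 of 3 libraries, with a log2 difference of -0.21 ± 0.14 (adjusted p = 0.54). Lpl differed by 0.21 ± 0.14 (adjusted p = 0.56), with 228, 404 and 34.6 CPM in monocytes. The Lpl difference was 0.44 with gates of 10 UMIs (adjusted p = 0.012) and -0.0062 without liver PC (adjusted p = 0.998). Cd36 differed by 0.27 ± 0.33 (adjusted p = 0.81) and Apoc1 by 0.17 ± 0.21 (adjusted p = 0.80). For these 5 members the test does not show that the 2 classes were alike.

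The members were also read along the C1q level, with no cut. The cells had no UMI of Clec4f, Cd5l or Csf3r and at least 2 UMIs of C1q and monocyte genes together. They also had at most 1 UMI of the CD3 genes and at most 1 of the B cell genes Cd79a and Cd79b. They were binned by the share of C1q in their UMIs. The bin above 1% and up to 2% was set against the bin above 0 and up to 0.25%. In labelled heart TIL, liver PC and labelled liver TIL these bins held 528 and 564, 339 and 697, and 862 and 652 cells, with medians of 832 and 860, 1883 and 1425, and 777 and 838 UMIs. Lgmn had ratios of 3.42, 4.04 and 3.37 and Apoe of 2.48, 3.49 and 3.37, all with 95% intervals above 1. Trem2 had ratios of 1.96, 3.04 and 2.59, Gpnmb of 2.38, 2.74 and 2.90 and Fabp5 of 1.64, 1.88 and 1.80, also above 1 in each library. Over all genes with at least 10 UMIs in each library 3.13% had intervals above 1 in 3 of 3 libraries, and 10.4% of those with at least 100. Trem2, which did not pass against Chil3-high monocytes, thus differed along the C1q level in 3 of 3 libraries. This is a description of pooled cells, with no test over samples. Since 2 C1q UMIs with no monocyte gene were enough, the lower bin may hold other cells with free C1q RNA. The part of such cells in the ratios was not tested.

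The remaining members varied less or differed between libraries. Lpl had ratios of 1.38, 1.94 and 1.25, Plin2 of 1.79, 1.18 and 1.47, Abca1 of 1.67, 3.87 and 1.66 and Cd36 of 0.52, 1.28 and 1.90. Of these, the interval spanned 1 for Lpl in labelled liver TIL, Plin2 in liver PC, Abca1 in labelled heart TIL and labelled liver TIL, and Cd36 in labelled heart TIL and liver PC. Apoc1 ran the other way, with ratios of 0.64 and 0.27 in labelled heart TIL and liver PC and 0 against 8.05 CPM in labelled liver TIL, with intervals below 1. Chil3 itself was 6061, 7161 and 1027 CPM in the lower bin and 2476, 1918 and 470 CPM in the higher bin. Above 2%, in 64, 79 and 229 cells, Apoe reached 11740, 10360 and 12994 CPM and Lgmn 1923, 1983 and 2144 CPM. Apoe and Lgmn were highest in the top bin in each of these 3 libraries.

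**Figure D3:**
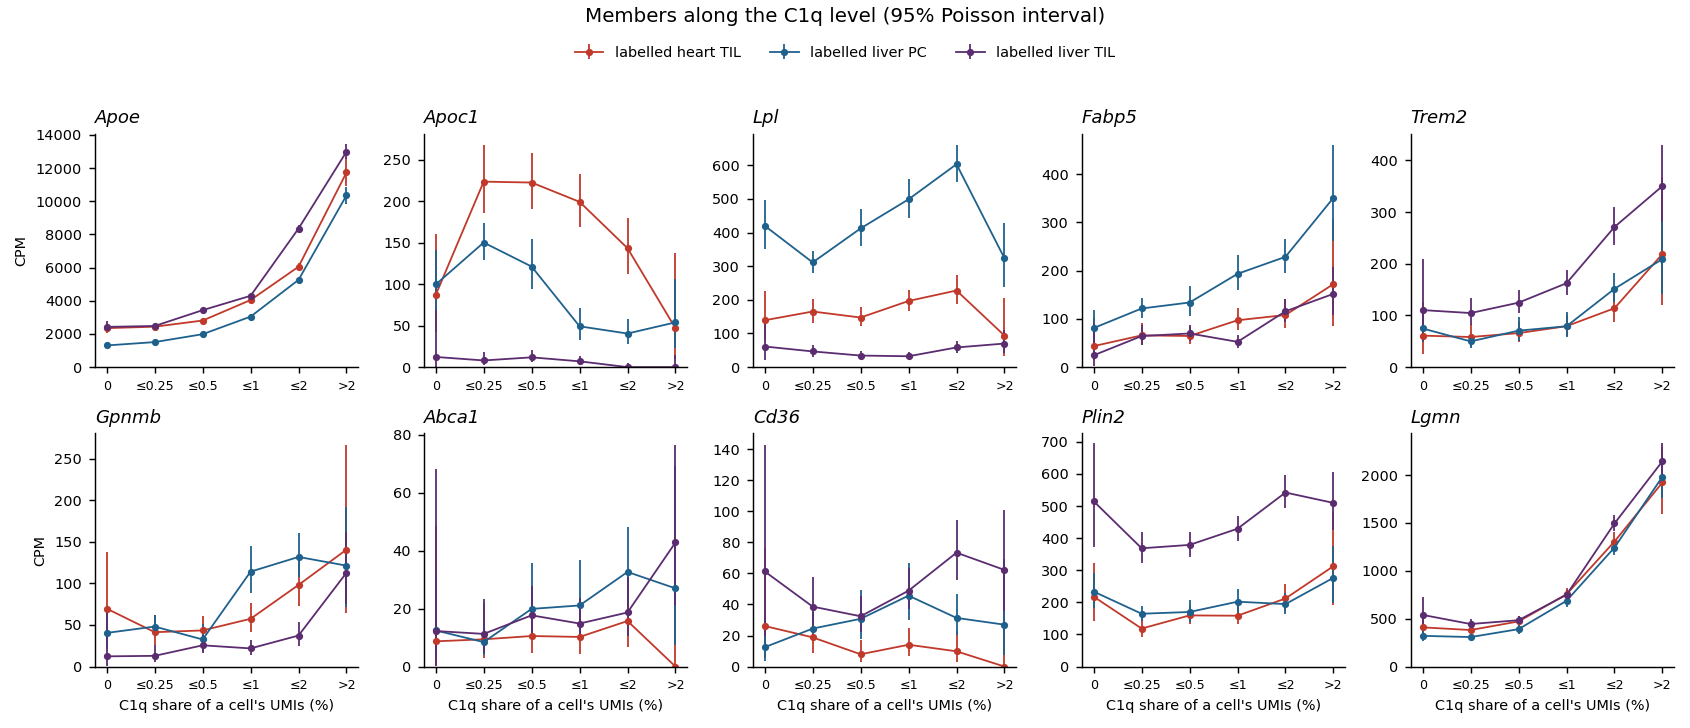
Level of each member (CPM, linear axis) in 6 bins of the C1q share of a cell's UMIs (percent) in the 3 large tissue libraries, with exact 95% Poisson intervals. Apoe and Lgmn climb to 10360 to 12994 CPM and 1923 to 2144 CPM in the top bin, while Apoc1 goes from 224 to 46.9 CPM between the second and the last bin of labelled heart TIL and Plin2 is highest in labelled liver TIL in every bin.

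Between monocytes and neutrophils edgeR called 2 members. Trem2 and Lpl were called higher in Chil3-high monocytes, of 7 members tested, against 8.57% of 2963 genes tested. Of these, Trem2 passed the filter on low counts through the monocytes alone, so that its call is a description. Gpnmb, Abca1 and Cd36 did not pass the filter on low counts. DESeq2 called 0 of the 7, and the comparison rests on labelled heart TIL, liver PC, liver PBMC and labelled liver TIL.

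Trem2 stood at 75.0, 94.4, 125 and 86.4 CPM in monocytes of labelled heart TIL, liver PC, liver PBMC and labelled liver TIL and at 0, 18.6, 27.1 and 57.0 CPM in neutrophils (log2 fold change 1.75 ± 0.40, adjusted p = 0.0034). It was higher in 4 of 4 libraries. The monocytes of liver PBMC were the highest of the 4, with 28 UMIs, while T cells of that library held 0, which allows up to 22.2 CPM. The adjusted p of Trem2 was 0.070 with DESeq2, and without liver PBMC it no longer passed the filter on low counts. Lpl stood at 228, 404, 31.4 and 34.6 CPM against 115, 158, 9.02 and 0 CPM (log2 fold change 1.16 ± 0.32, adjusted p = 0.014), and without liver PC its adjusted p was 0.14. With labelled heart TIL and labelled liver TIL both left out, a choice made after the data were seen, 1 residual degree of freedom was left, Trem2 was called (adjusted p = 0.026) and Lpl was not (adjusted p = 0.082), where 2.49% of all genes tested were called higher. The Lpl call was also lost with a floor of 1000 UMIs per cell (log2 fold change 0.42, adjusted p = 0.54). Fabp5 had a log2 difference of -1.11 ± 0.45 (adjusted p = 0.088), with 13.4 CPM in monocytes of liver PBMC on 3 UMIs and 118 CPM in the neutrophils beside them. Without liver PC the adjusted p of Fabp5 was 0.034.

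Blood neutrophils had a median of 0 C1q UMIs. In heart, liver and kidney PBMC Fabp5 stood at 146, 118 and 89.2 CPM on 339, 118 and 6 UMIs, and Plin2 at 103, 103 and 14.9 CPM. Against T cells of the same libraries the ratio of Fabp5 was 4.21 (2.26 to 8.87), 2.002 (0.98 to 4.75) and 1.23 (0.42 to 3.03), so that it was above 1 beyond the counting interval in heart PBMC only. These T cells also held neutrophil markers, at 99804, 53714 and 18088 CPM against 229206, 170845 and 165549 CPM in the neutrophils, and the part of that RNA in the ratios was not tested. Apoe stood at 200, 293 and 0 CPM, beside 139, 214 and 9.96 CPM in T cells. Over the 6 libraries with enough neutrophils and T cells, tissue included, the interval of the Apoe ratio lay above 1 in 4. Heart PBMC was among these. Lgmn stood at 18.1, 42.1 and 14.9 CPM. In kidney PBMC Plin2 and Lgmn rest on 1 UMI each, and for both genes the interval of the ratio to T cells spanned 1 in 3 of 3 libraries. In tissue neutrophils Apoe stood at 2250, 1097 and 2737 CPM in labelled heart TIL, liver PC and labelled liver TIL. These cells also had a median of 2, 1 and 2 C1q UMIs, and the part of free RNA or mixed cells in these levels was not tested.

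Between tissue and blood, monocytes of labelled heart TIL, liver PC and labelled liver TIL could be set only against those of liver PBMC, so the blood side is 1 library. Of 8 members tested 0 were called by edgeR, against 2.09% of 4876 genes called higher in tissue and 0.779% called lower, while 4 had an unadjusted p under 0.05 and DESeq2 called 1 of 5 with an adjusted p. Apoe stood at 2650, 1499 and 2540 CPM in tissue and at 704 CPM in blood (log2 difference 1.60 ± 0.48, adjusted p = 0.064). Lgmn stood at 380, 305 and 570 CPM against 121 CPM (1.66 ± 0.49, adjusted p = 0.058), and Fabp5 at 69.8, 109 and 69.1 CPM against 13.4 CPM (2.65 ± 0.79, adjusted p = 0.061). All tissue values of these 3 genes lay above the blood value, and so did those of Plin2 and Lpl. The share of all genes for which this held was not counted, and the blood value is from 1 library. Trem2 stood at 75.0, 94.4 and 86.4 CPM against 125 CPM (-0.58 ± 0.49, adjusted p = 0.72), and Plin2 at 225, 245 and 518 CPM against 215 CPM (0.42 ± 0.46, adjusted p = 0.80). Lpl, at 228, 404 and 34.6 CPM against 31.4 CPM, did not pass (3.01 ± 1.22, adjusted p = 0.39), and labelled liver TIL lay close to blood. The calls turned on single libraries. Without labelled heart TIL 1 member was called higher (Lgmn), without liver PC 3 (Apoe, Lpl and Lgmn) and without labelled liver TIL 2 (Lpl and Fabp5), where 2.28%, 3.72% and 2.91% of all genes tested were called higher. The blood side of each of these fits was 1 library, whose monocytes held 3 UMIs of Fabp5 and 7 of Lpl. Lpl without liver PC and Fabp5 without labelled liver TIL passed the filter on low counts through tissue alone, so that these calls are descriptions. Without the limits on other lineages the difference of Fabp5 was -0.044 and that of Trem2 0.047. T cells of the tissue libraries held 1188, 425 and 1475 CPM of Apoe and those of liver PBMC 214 CPM, and the part of free RNA in the difference was not tested. Markers of other cells moved with this comparison too. T cell markers stood at 1937, 1125 and 1451 CPM in the tissue monocytes and at 85.2 CPM in those of blood, and neutrophil markers at 11830, 15583 and 7084 CPM and at 28227 CPM, and their part was not tested.

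The Kupffer gate was set against the other C1q-high macrophages of labelled heart TIL and liver PC. Apoc1 stood at 416 and 264 CPM in the Kupffer gate and at 147 and 59.7 CPM in the other macrophages, a ratio of 2.84 (2.22 to 3.61) and 4.43 (3.38 to 5.80). Lpl stood at 331 and 760 CPM against 212 and 527 CPM, and Lgmn at 1397 and 1412 CPM against 1044 and 955 CPM. These 3 members were higher in the Kupffer gate beyond the counting interval, with ratios of 1.56 and 1.44 for Lpl and 1.34 and 1.48 for Lgmn. Hepatocyte markers stood at 481 and 299 CPM in the Kupffer gate against 444 and 209 CPM in the other macrophages.

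Apoe, Fabp5, Trem2 and Gpnmb were lower in the Kupffer gate beyond the counting interval. Apoe stood at 4038 and 3225 CPM, a ratio of 0.79 and 0.75 to the other C1q-high macrophages. Fabp5 stood at 42.3 and 74.2 CPM, with ratios of 0.41 (0.20 to 0.76) and 0.36 (0.24 to 0.51), and its ratios to T cells, 0.77 (0.37 to 1.45) and 0.81 (0.54 to 1.17), had intervals that spanned 1. Trem2 stood at 50.04 and 55.6 CPM (ratios 0.50 and 0.48) and Gpnmb at 46.2 and 71.9 CPM (ratios 0.55 and 0.66), on 12 to 31 UMIs. For Abca1, Cd36 and Plin2 the interval spanned 1 in both libraries. Hence the interval of 7 of 10 members excluded 1 in both libraries, on the same side. The same held for 3.56% of the 7637 genes with at least 10 UMIs in each library, and for 10.1% of the 2098 genes with at least 100, of which 8 were members. No test over samples was made with these 2 libraries, and the intervals cover counting error only.

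**Figure D4:**
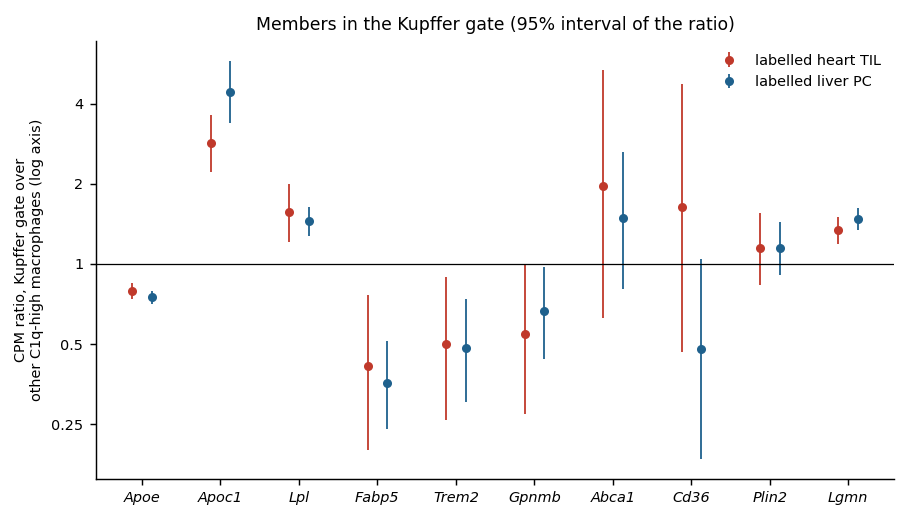
Ratio of CPM in the Kupffer gate to CPM in the other C1q-high macrophages (log axis, 1 means equal) for each member in the 2 libraries with such cells, with 95% intervals of the ratio from the exact binomial interval of the counts. Apoc1 lies at 2.84 and 4.43 and Fabp5 at 0.41 and 0.36. The interval excludes 1 on the same side in both libraries for 7 of 10 members, against 3.56% of genes with at least 10 UMIs.

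The C1q-high macrophages were set side by side by library, as a description, since counting intervals between single libraries exclude 1 for many genes. Between labelled liver TIL and labelled heart TIL this was so for 25.7% of the genes with at least 10 UMIs and 46.7% of those with at least 100. Labelled liver TIL exceeded labelled heart TIL beyond the counting interval for Apoe (ratio 1.39), Trem2 (2.38), Cd36 (5.44), Plin2 (2.69) and Lgmn (1.20). It was below labelled heart TIL for Apoc1 (0.02), Lpl (0.24) and Gpnmb (0.52), and the interval spanned 1 for Fabp5 and Abca1. Since organ genes ran against both labels, the organ behind these ratios is uncertain. Against liver PC, labelled liver TIL was likewise higher in Apoe, Trem2, Cd36, Plin2 and Lgmn, and it was lower in Apoc1, Lpl, Fabp5 (0.48) and Gpnmb, where 31.3% and 48.7% of genes at these UMI minimums differed. Lpl stood at 50.7 CPM in labelled liver TIL and 527 CPM in liver PC. RNA of other cell types also differed: in the macrophages of labelled heart TIL, liver PC and labelled liver TIL the 4 platelet markers, with Pf4, stood at 66.6, 49.6 and 338 CPM, the 5 stromal markers at 79.9, 32.8 and 607 CPM and the 8 cardiomyocyte markers at 10.97, 10.6 and 165 CPM. Platelets are known to carry CD36, and cardiomyocytes to make LPL. The 6 adipocyte markers were at 0 UMIs in all 3. Their part in these ratios was not tested.

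Liver PC and labelled heart TIL, the 2 libraries with Kupffer and hepatocyte RNA, differed beyond the counting interval in 8 of 10 members, against 27.1% of the genes with at least 10 UMIs and 46.7% of those with at least 100. Of the 8 members with at least 100 UMIs, 6 did. Liver PC was higher in Cd36 (ratio 2.88, interval 1.62 to 5.43), Lpl (2.49), Abca1 (2.25, 1.24 to 4.31), Fabp5 (2.02) and Gpnmb (1.28), and lower in Apoc1 (0.41), Apoe (0.84) and Lgmn (0.91). The interval spanned 1 for Trem2 (1.16, 0.93 to 1.45) and Plin2 (1.13, 0.96 to 1.34). In kidney TIL, with 126 macrophages, 6 members were lower than in liver PC, Apoe (ratio 0.31), Apoc1 (0 UMIs), Lpl (0.59), Trem2 (0.21), Gpnmb (0.33) and Lgmn (0.34). Cd36 was higher (3.18, interval 1.39 to 6.43) on 9 UMIs, and the interval spanned 1 for Fabp5, Abca1 and Plin2. Between these libraries 10.8% of the genes with at least 10 UMIs and 27.7% of those with at least 100 differed. Each value is from 1 library, so these ratios compare libraries and not organs, and depth, dissociation and animals cannot be told apart from the organ.

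In single cells the members other than Apoe were sparse. With each cell thinned to 500 UMIs, Apoe was found in 79.2%, 67.2% and 84.1% of C1q-high macrophages of labelled heart TIL, liver PC and labelled liver TIL and in 44.3%, 18.8% and 50.7% of T cells. Unthinned, the macrophage shares were 91.1%, 90.4% and 92.8%, at median depths of 863, 1618 and 799 UMIs, and the T cells had median depths of 772, 1413 and 760 UMIs. Lgmn was found in 35.9%, 31.4% and 41.1% of thinned macrophages and in 9.51%, 3.08% and 11.7% of T cells. Trem2 was found in 4.27%, 6.54% and 10.4% of macrophages and in 1.47%, 0.54% and 2.75% of T cells. The T cell shares are given as the background of each library, and how much of them is free RNA was not tested.

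Counted over the 10 members, 10.6%, 14.5% and 6.48% of thinned macrophages in labelled heart TIL, liver PC and labelled liver TIL had none and 12.04%, 13.4% and 12.7% had 3. At least 2 members were found in 47.5%, 46.0% and 53.2% of these macrophages and in 14.2%, 4.40% and 16.5% of T cells. Of T cells 44.8%, 71.1% and 41.0% had none and 1.41%, 0.39% and 2.54% had 3. In kidney PC and kidney TIL 48.3% and 54.0% of macrophages had none.

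**Figure D5:**
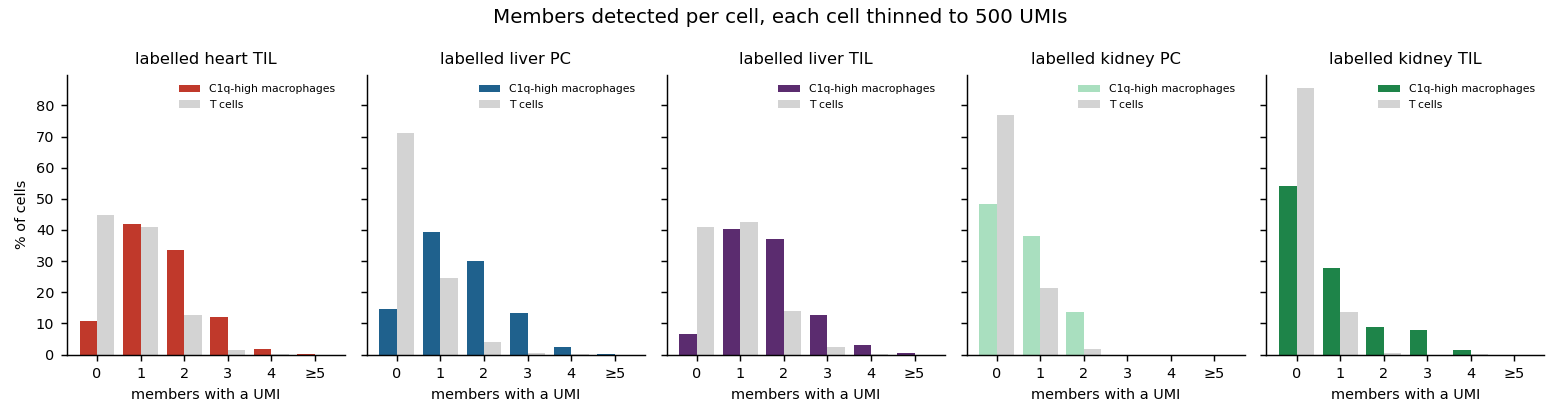
Share of cells (percent, axis from 0) with 0 to 5 or more of the 10 members detected, after thinning each cell to 500 UMIs, in C1q-high macrophages (coloured bars) and T cells (grey bars) of the 5 tissue libraries. Cells with 3 members make up 12.04% to 13.4% of macrophages and 0.39% to 2.54% of T cells in the 3 large libraries.

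Pairs of members in the same cells are given for labelled heart TIL, liver PC and labelled liver TIL in that order. Gpnmb was found in 10.9% of 64, 10.98% of 82 and 10.8% of 74 thinned macrophages with Fabp5, and in 3.27%, 4.54% and 1.24% of those without. Lgmn was found in 37.2%, 34.8% and 41.4% of cells with Apoe and in 31.0%, 24.4% and 39.3% of those without. Lgmn was found in 49.1%, 31.7% and 50.7% of cells with Trem2 and in 35.3%, 31.3% and 40.0% of those without, so that liver PC showed almost no difference. Of 45 pairs of members, 24 had a member in fewer than 20 cells of a library, and of the others 8 had the higher share in positive cells in 3 of 3 libraries and 13 did not lie on the same side in all. In liver PC, for example, Lpl was found in 14.8% of cells with Apoe and in 20.6% of those without. These pairs were chosen after the values were seen, and the cells are of 1 library each and not replicates.

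Other genes of the same pathways followed the members to different degrees. Among 21 genes of cholesterol handling, 20 were tested between C1q-high macrophages and T cells, and 13 were higher and 2 lower, against 21.3% and 20.6% of all genes tested. The higher ones included Nr1h3, which encodes the oxysterol receptor LXR alpha (log2 fold change 2.87 ± 0.20), the cholesterol exporter Abcg1 (1.93 ± 0.30), the scavenger receptor Msr1 (3.28 ± 0.17) and the acid lipase Lipa (2.08 ± 0.18). The 2 lower genes were Srebf2, the regulator of sterol synthesis (-0.95 ± 0.27), and Sqle, an enzyme of that pathway (-0.99 ± 0.31). Of 20 genes of the lysosome and the TREM2 programme tested, 16 were higher, Tyrobp, the adaptor of Trem2, among them (2.22 ± 0.15), and 1, Cst7, a cystatin also made by cytotoxic lymphocytes, was lower (-1.55 ± 0.16). Of 15 genes of fatty acid handling 7 were higher and 2 lower. With labelled heart TIL and labelled liver TIL both left out, 8 of 10 cholesterol genes tested were higher, 12 of 17 lysosome genes and 2 of 7 fatty acid genes, against 16.5% of all genes tested. The median log2 fold changes were 1.43, 1.97 and 0.48 in the 3 lists, 2.77 in the members and -0.04 over all genes tested.

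Against Chil3-high monocytes 2.94% of all genes tested were higher and 2.84% lower in macrophages. In cholesterol handling 4 of 20 genes were higher, Nr1h3 (1.13 ± 0.18), Lipa, Msr1 and Pltp (1.07 ± 0.25). In the lysosome list 8 of 20 were higher, Cd63, Ctsb, Ctsd, Ctsl, Itgax, Hexa and Grn among them, with log2 fold changes between 0.48 and 1.49. In fatty acid handling Acsl1 was higher and Dgat2, which makes triglyceride, was lower (-1.34 ± 0.38), of 14 tested. The median log2 fold change was 0.33 in the lysosome list, 0.01 in cholesterol handling, -0.12 in fatty acid handling and 0.04 over all genes. Against neutrophils, 4 of 8 cholesterol genes tested were higher in monocytes (Npc2, Scarb1, Msr1 and Lrp1), where 8.57% of all genes were higher and 14.4% lower. In the lysosome list 7 of 17 were higher and 5 lower, among the lower ones the tetraspanin genes Cd9 (-2.71 ± 0.33) and Cd63 (-2.07 ± 0.35). Of 5 fatty acid genes Pnpla2, the lipase of lipid droplets, was lower (-1.45 ± 0.29). With labelled heart TIL and labelled liver TIL both left out, 4 of 11 cholesterol genes and 3 of 19 lysosome genes were higher and 4 of the latter lower, against 2.49% and 7.06% of all genes. Between tissue and blood monocytes, where the blood side is 1 library, no count over the lists is given, since genes near 0 UMIs in blood pass the filter through tissue alone. The median log2 fold change was -0.0007 in cholesterol handling, -0.32 in fatty acid handling, 0.07 in the lysosome list and 0.04 over all genes. Msr1, picked from the lists, stood at 375, 319 and 346 CPM in tissue and at 80.7 CPM in blood.

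Profiles over the 25 sums of gate and library grouped the members again. The measure was Pearson's r of log2(CPM + 10) over 10422 genes, given as a description, since sums of 1 library share its free RNA and depth. Apoe was most like the cathepsin genes Ctsb (0.97), Ctsc (0.94) and Ctsz (0.93), and Lgmn most like Gatm (0.98), with Msr1 also close (0.96). Apoe and Lgmn had an r of 0.92 with each other, and Lpl and Gpnmb an r of 0.83. Gpnmb was most like Mertk, a receptor for apoptotic cells (0.91), Trem2 most like Pid1 (0.87), Lpl most like Lacc1 (0.91) and Abca1 most like Sash1 (0.93). Cd36 was most like Vwf (0.84) and Plin2 most like Atp6ap2 (0.90), with Ccl2 and Apoe next (0.86 each). Apoc1 was most like the hepatocyte genes Alb, Apoa1 and Serpina1a (0.90 each). For Fabp5 the most similar gene was Por (0.63), and its r with the other 9 members lay between -0.09 and 0.33.

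The gates were strict, and in labelled heart TIL and liver PC most UMIs of each member lay outside them. In liver PC the C1q-high gate held 24.1% of all Apoe UMIs, the Kupffer gate 4.12% and T cells 4.48%, and 63.6% lay in cells of no gate, at 1728 CPM there. In labelled liver TIL the C1q-high gate held 41.9% of Apoe UMIs and 45.6% of Lgmn UMIs. Apoc1 differed from the other members, with 7.28% of its UMIs in the C1q-high gate and 7.34% in the far smaller Kupffer gate of liver PC. Reads aligned to more than 1 place had been removed by the authors, so a gene with a near-identical copy may be undercounted. Fabp5l2, the named copy of Fabp5 in the tables, had 1 UMI.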

How the data were processed

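Per the labels and the study's methods, the authors made the deposited UMI counts per gene and cell barcode with bcl2fastq and STAR on GRCm38 with a GENCODE annotation, removed reads aligned to several places and merged near-identical UMIs. Total UMIs per library ran from 3418722 to 19171264. All intervals and limits cover counting error only.

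From these counts, barcodes that reached 500 UMIs, with no more than 10% of them mitochondrial, were gated on raw UMIs as described, and doublets were limited only by the limits on genes of other lineages. UMIs were summed per gate and library (20 cells or more, 25 sums) and tested over all genes with edgeR 4.0.16 (R 4.3.3; TMM, filterByExpr, quasi-likelihood F test, library as block, no block for tissue against blood), with Benjamini-Hochberg adjustment and calls at an adjusted p under 0.05. SEs were derived from the fold change and the F statistic. The sums of 1 library are not separate animals, and with 1 library per group p-values measure only the spread between libraries, which may be technical. The code was tested on simulated data. Levels have exact Poisson intervals. Ratios have exact binomial intervals, and log2 ratios of the Kupffer gate used a pseudocount of 1 CPM. Cells were thinned to 500 UMIs for shares of cells. Named genes were the members, the gate, marker and pathway lists, and for each member the 3 most similar genes with at least 50 UMIs.

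DESeq2 1.42.0, other size factors, floors, gates, filters, designs and left-out libraries were tried, 3 of them chosen after the data were seen. The labels carry no replicate numbers. A few list genes and similar genes are not reported here. The members and lists were chosen with earlier results of these data known.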

Additional observations from a re-analysis of the deposited data

How the results depend on the processing

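Counts of genes called changed under several alternatives. Macrophages against T cells gave 3783 genes, and 2509 with DESeq2, 1614 with no library block and 1420 with the libraries labelled heart TIL and liver TIL both left out. Macrophages against monocytes gave 439 genes, and 124 with DESeq2, 721 with gates of 10 UMIs, 26 with no block and 88 (without liver PC) to 505 (without labelled liver TIL) with 1 library left out. In the main fit 5 members were called higher, against 2.94% of all genes tested. It was 2 members with DESeq2, 1 with no block and 2 to 5 with 1 library left out. Monocytes against neutrophils gave 681 genes, and 360 with DESeq2, 442 with no filter on low counts, 424 with a floor of 1000 UMIs, 1464 with no limits on other lineages, 143 with no block and 315 (without liver PBMC) to 702 with 1 library left out, and 2 members, against 0 with DESeq2, 1 with the floor of 1000 UMIs, 0 with no block, 1 with the libraries labelled heart TIL and liver TIL both left out and 1 to 2 with 1 library left out. Tissue against blood gave 140 genes, and 61 with DESeq2, 571 with no limits and 53 with organ as a covariate. No member was called in its main fit, and some were called in several alternatives. These calls are not counted here, since the blood side of the main fit is 1 library. The fit without liver PBMC could not be made, since it is the only blood library.

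The sign turned in 14 member values, none of them called. Against monocytes these were Apoc1, at -0.098 with gates of 10 UMIs and -0.15 with no block, Plin2, at 0.034 with no block, and Lpl, between -0.0062 (without liver PC) and 0.39 with 1 library left out. Against neutrophils they were Apoc1, at 0.42 with no limits, 0.065 with the libraries labelled heart TIL and liver TIL both left out, and between -1.09 (without liver PBMC) and 0.13 (without liver PC) with 1 library left out, and Plin2, at -0.0020 with DESeq2, -0.011 without shared barcodes, -0.12 with no block and between -0.21 (without liver PBMC) and 0.22 (without labelled heart TIL) with 1 library left out. Between tissue and blood they were Apoc1, at -0.0021 with organ as a covariate, and Fabp5 and Trem2, at -0.044 and 0.047 with no limits. The causes of these changes were not tested. The library block pairs the gates within a library in 3 of the 4 comparisons, and the labels carry no replicate numbers for another pairing.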
